A study of Mus musculus with 12 samples.

Results

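The genes described here encode the NF-κB proteins and the inhibitors that hold them in check. The 5 subunit genes Nfkb1, Nfkb2, Rel, Rela and Relb, the 4 IκB genes Nfkbia, Nfkbib, Nfkbie and Nfkbiz, and the A20 gene Tnfaip3 were taken by name from the table of read counts, 10 of its 55401 genes. All 10 were among the 14079 genes that were expressed highly enough to be tested. They were measured by RNA sequencing of 12 libraries, 3 in each of 4 groups. The cells were Sp37A3, a dendritic cell (DC) line from the spleen of C57BL/6 mice that was kept in GM-CSF and M-CSF.

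CtrV cells carried an empty vector and are labelled as expressing Siglec-E, an inhibitory receptor of the sialic acid-binding lectins. EKO cells are a pool of clones edited with CRISPR-Cas9 at Siglece, the gene of that receptor. Each line was sequenced after a pulse of ovalbumin (OVA, 0.1 mg/ml for 2 h) and stimulation with lipopolysaccharide (LPS, 0.1 µg/ml for 24 h), and also without the OVA pulse, where the LPS dose is not given in the sources used here. The labels give LPS stimulation for all 4 groups, so no group shows these genes in cells that had not met LPS. Both lines are single lines, and the labels give replicate numbers without saying that the replicates were separate cultures. The p-values therefore measure the spread between these libraries, which may be technical, and a difference between the lines cannot be told apart from other differences between a vector line and a pool of clones.

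NF-κB is a family of transcription factors that act as dimers. In resting cells IκB proteins keep the dimers in the cytoplasm. When LPS engages TLR4, the IκB kinase complex phosphorylates IκBα, IκBα is degraded, and dimers such as RelA with p50 enter the nucleus. This is the canonical route. In the non-canonical route the p100 precursor made from Nfkb2 is processed to p52, which pairs with RelB, a route known for its role in DC maturation. Several of the proteins are made from genes that NF-κB itself switches on, among them IκBα, the nuclear cofactor IκBζ and the ubiquitin-editing enzyme A20, so that transcription of these genes is part of the feedback of the pathway.

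Total counts per library lay between 27116201 and 39698572, and the lowest count of any of the 10 genes in any library was 1072 reads. Siglece mRNA was not lower in the libraries labelled EKO (166 to 235 CPM, edgeR's read counts scaled to the library size) than in CtrV libraries (150 to 163 CPM). The paper reports that the clones were screened for Siglec-E expression and had little or none before they were pooled. The mRNA level does not check whether the edited gene still makes a protein, so the cells are called EKO-labelled. All 13 DC markers were expressed, although Flt3 lay at or below 7.85 CPM in all libraries and Batf3 at or below 4.59 CPM in CtrV. Their summed level was 28400 to 31000 CPM in CtrV and 29600 to 31700 CPM in EKO-labelled libraries. Cd74 was its largest part (14000 to 18300 CPM), and single markers differed. H2-Ab1, H2-Aa, Batf3, Irf8 (80.1 to 118 against 178 to 295 CPM) and Fscn1 were higher in every EKO-labelled library. H2-Eb1 was lower in each (4050 to 4470 against 3380 to 3670 CPM), and the others overlapped. The summed level of 6 macrophage markers was 1280 to 1460 CPM in CtrV and 1630 to 1760 CPM in EKO-labelled libraries, with Mrc1 at 0 in all of them. Summed markers of T cells, B cells, fibroblasts, NK cells and neutrophils stayed at or below 1.57 CPM, with Cd3e, Cd3g, Trac, Col1a2, Ncr1 and Ly6g at 0. Of the epithelial markers, the cadherin gene Cdh1 lay at 551 to 636 CPM in CtrV and 152 to 182 CPM in EKO-labelled libraries. Epcam lay at 20.8 to 27.2 CPM in CtrV and 25.2 to 33 CPM in EKO-labelled libraries, with overlap. Krt8 stayed at or below 0.0332 CPM and Krt18 was at 0. Replicate 1 of the EKO-labelled cells stood apart from the other libraries on the second principal component (7.11% of the variance), with scores of 18.8 without and 20.5 with OVA against -18.3 to 8.95 in the other 10. The part of these marker levels in the results below was not tested.

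Promoter windows were available from RefSeq (GRCm38.p6, 250 bases before to 50 after a start site) for 7 of the 10 genes, and Nfkb1, Relb and Nfkbiz had none. Each window was searched on both strands for the strict κB motif (GGG, any 2 bases, TTTCC) and for the looser κB consensus, which shares its GGG start and CC end. The strict motif was found in windows of Nfkb2, Rel, Nfkbia and Tnfaip3, that is in 4 of 7 genes, against 1.89% of all 27025 genes and 1.63% of all 32851 windows. The looser consensus, which overlaps the strict motif, was found in these genes and in Nfkbie, 5 of 7 genes, against 9.55% of all genes and 8.46% of all windows. A match describes letters in a window and is not a binding site. The 30-base stretches around the strict matches of Nfkb2, Nfkbia and Tnfaip3 and the looser match of Nfkbie are shown because the levels of these genes are followed below. Further looser matches are not printed. They begin at -39 and -38 from the first and -236 from the second start of Nfkb2, and at -125 from the more upstream start of Tnfaip3. They are written along the strand of the gene, with the matched 10 bases in capitals.
Nfkb2, first start, chr19:46304716-46304745, plus strand: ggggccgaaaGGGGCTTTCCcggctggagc
Nfkb2, both later starts, chr19:46305695-46305724, plus strand: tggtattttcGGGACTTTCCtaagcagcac
Nfkbia, chr12:55492657-55492686, minus strand: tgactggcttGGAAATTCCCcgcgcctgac
Tnfaip3, chr10:19015403-19015432, minus strand: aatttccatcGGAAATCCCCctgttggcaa
Nfkbie, looser consensus only, chr17:45555584-45555613, plus strand: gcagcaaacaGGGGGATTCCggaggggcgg

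In Nfkbia and Tnfaip3 the strict motif lies on the strand opposite to the gene, and in Nfkb2 it lies on the strand of the gene. Counted from the start base as 0, the match begins at -29 in Nfkbia, at -12 for the more upstream start of Tnfaip3 and at -11 for the first start of Nfkb2. The other Nfkb2 stretch begins at 10 for the second start and at -225 for the last. No match to either motif was found in the windows of Rela and Nfkbib, which says only that these letters are absent there. Whether a match bears on the level of a gene was not tested. Among the genes found higher in OVA-pulsed EKO-labelled cells below are Nfkb2, Rel, Nfkbia and Tnfaip3, with a match. Rela and Nfkbib, without a match, are also among them, and Nfkbie, with a looser match, is not. Rel and Rela encode the canonical activating subunits, and their upstream stretches are printed. That of Rel holds 2 overlapping matches in capitals, and that of Rela has none.
Rel, chr11:23770971-23771219, minus strand: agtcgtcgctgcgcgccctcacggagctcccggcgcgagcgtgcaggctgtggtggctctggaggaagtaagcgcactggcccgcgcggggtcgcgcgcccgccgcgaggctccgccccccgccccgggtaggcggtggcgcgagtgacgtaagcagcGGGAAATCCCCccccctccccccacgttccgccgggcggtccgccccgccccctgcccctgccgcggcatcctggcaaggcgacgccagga
Rela, chr19:5637291-5637482, plus strand: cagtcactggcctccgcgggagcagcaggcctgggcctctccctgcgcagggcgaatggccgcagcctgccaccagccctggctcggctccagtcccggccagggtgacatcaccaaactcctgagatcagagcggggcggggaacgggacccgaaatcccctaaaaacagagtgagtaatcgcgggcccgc

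**Figure D1:**
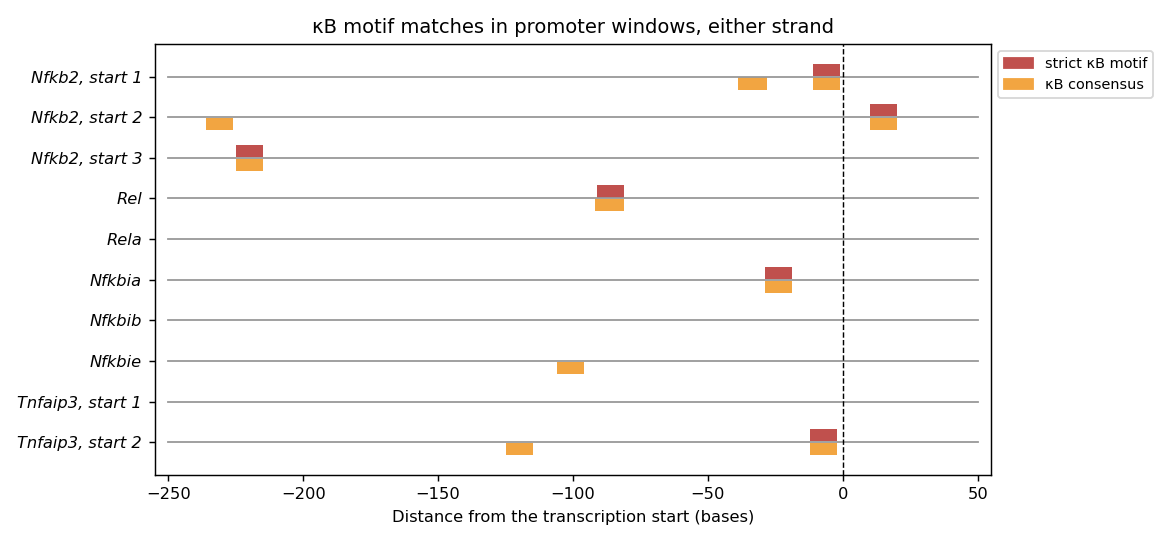
Matches to the strict κB motif (red) and the looser κB consensus (orange) in the promoter windows of 7 genes, drawn as blocks of 10 bases against the distance from the transcription start in bases, with the start as a dashed line. Matches are seen in Nfkb2, Rel, Nfkbia and Tnfaip3 for both motifs, in Nfkbie for the looser one, and for neither motif in Rela and Nfkbib.

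EKO-labelled cells were compared with CtrV cells in each pulsing state to see how the lines differ. Of the 10 genes, 9 were higher in OVA-pulsed EKO-labelled cells, none was lower, and Nfkbie did not pass. The threshold was 0.05 on the p of the quasi-likelihood test in edgeR, adjusted by Benjamini and Hochberg over all tested genes. Of these genes 47.0% passed it, 25.1% as higher and 21.9% as lower. Without OVA, 7 of the 10 were higher, none was lower, and Nfkb2, Rela and Nfkbie did not pass, against 46.4% of all genes in either direction, 24.5% as higher and 21.9% as lower. The median log2 fold change of the 10 genes was 0.88 with and 0.74 without OVA, beside 0.00064 and 0.00013 over all tested genes. The libraries of the lines did not overlap in CPM for 8 of the 10 genes in each state, all of them higher, while of all genes 52.9% did not overlap in OVA-pulsed and 47.1% in unpulsed cells, 27.0% and 24.1% of all genes being higher. These are RNA levels of whole cultures, in which more cells expressing a gene and more RNA per cell cannot be told apart.

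**Figure D2:**
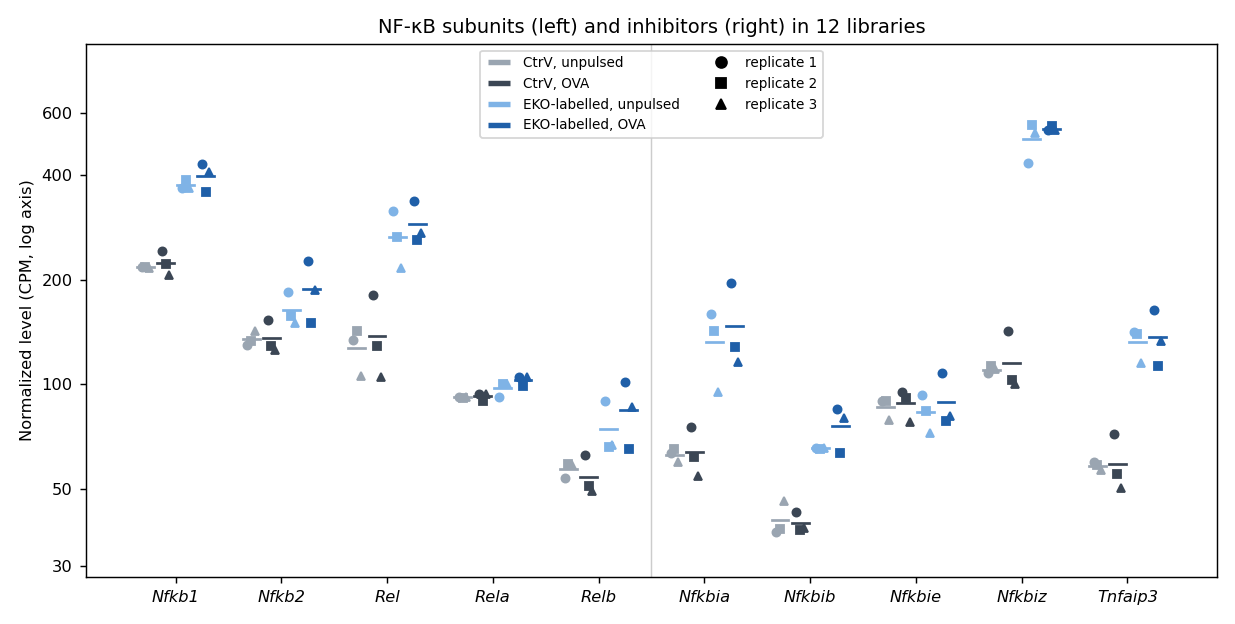
Normalized level of each gene (CPM, log axis) in the 12 libraries, by line and pulsing state, with the replicate shown by the symbol and the group mean by a bar. Nfkbiz moves from 100 to 142 CPM in CtrV to 434 to 556 CPM in EKO-labelled libraries, whereas Nfkbie stays between 72.4 and 108 CPM in all 12.

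Nfkb1 (ENSMUSG00000028163, chromosome 3 from 135584655 to 135691547, minus strand, GRCm38) encodes p105, the precursor of p50, and was the subunit gene with the highest CPM. It stood at 242, 222 and 206 CPM in OVA-pulsed CtrV replicates 1, 2 and 3, the order kept throughout, and at 428, 356 and 406 CPM in those of OVA-pulsed EKO-labelled cells. In unpulsed cells it stood at 217, 218 and 216 CPM in CtrV and 367, 388 and 367 CPM in EKO-labelled libraries. Every EKO-labelled library lay above every CtrV library in both states, and the unpulsed CtrV libraries were almost at one level. The log2 fold change was 0.83 with a standard error (SE) of 0.07 in OVA-pulsed cells (adjusted p = 5.63e-06), a 1.78-fold difference, and 0.79 ± 0.07 (SE) in unpulsed cells (adjusted p = 8.93e-06).

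Rel (ENSMUSG00000020275, chromosome 11 from 23736847 to 23770970, minus strand) encodes c-Rel, a subunit of lymphoid and myeloid cells that is known as an activator of the IL-12 subunit genes in macrophages and DCs. It was the subunit gene with the largest difference. Its level in OVA-pulsed cells was 181, 129 and 105 CPM in CtrV and 336, 259 and 272 CPM in EKO-labelled libraries. Without OVA it was 134, 142 and 106 CPM in CtrV and 316, 265 and 217 CPM in EKO-labelled libraries. The groups did not overlap, although Rel varied more between replicates than Nfkb1 did, with replicate 3 lowest in 3 of the 4 groups. Rel differed by a log2 fold change of 1.09 ± 0.11 (SE) with OVA (adjusted p = 1.73e-05) and 1.05 ± 0.11 without (adjusted p = 2.55e-05), that is 2.13-fold and 2.07-fold.

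Rela (ENSMUSG00000024927, chromosome 19 from 5637483 to 5648130, plus strand) encodes p65, the main transactivating subunit of the canonical dimer. Its levels were 94.2, 89.6 and 93.8 CPM in CtrV and 105, 99 and 105 CPM in EKO-labelled libraries after OVA. In unpulsed cells they were 92.1, 91.6 and 92.2 CPM in CtrV and 91.8, 100.3 and 100.5 CPM in EKO-labelled libraries. With OVA the lines did not overlap but were close, and without OVA replicate 1 of the EKO-labelled cells lay within the CtrV range. The log2 fold change of 0.16 ± 0.05 (SE) in OVA-pulsed cells passed the threshold (adjusted p = 0.0264), a 1.11-fold difference with a 95% interval of 0.04 to 0.27 on the log2 scale. That call was lost with upper-quartile normalization (0.12, adjusted p = 0.0668), without a filter on low counts (0.14, adjusted p = 0.123) and when any 1 of 4 libraries was left out, namely CtrV replicate 2 or 3 or EKO replicate 1 or 3 of the OVA-pulsed cells, where the adjusted p was at most 0.153. In unpulsed cells the log2 fold change was 0.08 with an interval of -0.03 to 0.20 (adjusted p = 0.195). That value was 0.14 without EKO replicate 1 and 0.046 without EKO replicate 2 of the unpulsed cells, and 0.035 with upper-quartile normalization, and did not pass in any of these.

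Relb (ENSMUSG00000002983, chromosome 7 from 19606217 to 19629438, minus strand) and Nfkb2 (ENSMUSG00000025225, chromosome 19 from 46304320 to 46312385, plus strand) encode the partners of the non-canonical dimer, RelB and the p100 precursor of p52. Relb was at 62.5, 51 and 49.3 CPM in CtrV and 102, 65.2 and 85.9 CPM in EKO-labelled libraries after OVA, and at 53.8, 59.2 and 58.8 CPM in CtrV and 89.7, 66.2 and 66.8 CPM in EKO-labelled libraries without OVA. Nfkb2 was at 153, 129 and 126 CPM in CtrV and 226, 149.8 and 186 CPM in EKO-labelled libraries after OVA, and at 130.1, 133 and 142 CPM in CtrV and 185, 157 and 151 CPM in EKO-labelled libraries without it. In EKO-labelled cells replicate 1 was the highest library for both genes in both states, and for Nfkb2 after OVA replicate 2 lay below the highest CtrV library. Relb was higher by a log2 fold change of 0.63 ± 0.12 (SE, adjusted p = 0.00166) with OVA and 0.35 ± 0.12 (adjusted p = 0.036) without. Nfkb2 was higher by 0.46 ± 0.10 (adjusted p = 0.00385) with OVA, whereas without OVA its value of 0.27 ± 0.10 was just outside the threshold (adjusted p = 0.0511).

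The DC maturation genes Fscn1 and Ccr7 are set beside these libraries. Fscn1 encodes the actin-bundling protein fascin, and Ccr7 the receptor that guides mature DCs to lymph nodes. Fscn1 was picked here as the gene most like Relb in these same data, and Ccr7 after its values were seen. That they resemble Relb is therefore no separate observation. Fscn1 was at 1400, 427 and 387 CPM in unpulsed and 1700, 404 and 862 CPM in OVA-pulsed EKO-labelled libraries, and at 150, 191 and 241 CPM in unpulsed and 342, 120 and 118 CPM in OVA-pulsed CtrV libraries. Ccr7 was at 404, 137 and 118 CPM in unpulsed and 534, 132 and 402 CPM in OVA-pulsed EKO-labelled libraries, and at 50.4 to 182 CPM in CtrV libraries, so that its ranges in the lines overlapped. Both were highest in replicate 1 of the EKO-labelled cells, and their part in the values of Relb and Nfkb2 was not tested. With both libraries of EKO replicate 1 left out, a choice made after the data were seen, 42.7% of all genes passed with and 44.3% without OVA, and 9 and 6 of the 10 genes passed. Nfkb2 then remained higher with OVA (0.34, adjusted p = 0.024), while Relb without OVA was at 0.25 and did not pass (adjusted p = 0.129). The call of Relb without OVA was also lost without the replicate number in the fit (0.37, adjusted p = 0.0888), with upper-quartile normalization, with only the 6 unpulsed libraries, and when any 1 of 5 libraries was left out. These were CtrV replicate 1 or 3 or EKO replicate 1 or 2 of the unpulsed cells, or CtrV replicate 2 of the OVA-pulsed cells, with values between 0.18 and 0.40 and an adjusted p of at most 0.147.

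Exons of Nfkb2 and Nfkbib overlap exons of genes on the opposite strand over 18.1% and 16.4% of their length in the GENCODE annotation, and whether the counting used strand is not stated in the sources used here. For Nfkb2 these are the non-coding gene AC114539.1, at 3.98 to 7.98 CPM, and Psd, at or below 0.183 CPM. For Nfkbib they are Ccer2, without a count, and Sirt2, at 47.2 to 60.5 CPM but overlapping over 42 bases. How many reads are shared was not tested.

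Nfkbia (ENSMUSG00000021025, chromosome 12 from 55489410 to 55492647, minus strand) encodes IκBα, the inhibitor that is degraded and resynthesized when the canonical route is switched on. It was at 75.7, 62 and 54.4 CPM in CtrV and 196, 128 and 116 CPM in EKO-labelled libraries after OVA. Without OVA it was at 63.4, 65.1 and 59.7 CPM in CtrV and 159, 143 and 95.2 CPM in EKO-labelled libraries. The lines did not overlap, and in EKO-labelled cells replicate 1 was highest and replicate 3 lowest in both states. Nfkbia was higher by a log2 fold change of 1.18 ± 0.13 (SE, adjusted p = 2.74e-05) with OVA and 1.04 ± 0.13 (adjusted p = 7.48e-05) without, that is 2.27-fold and 2.06-fold.

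Nfkbib (ENSMUSG00000030595, chromosome 7 from 28758251 to 28767512, minus strand) encodes IκBβ, a slower classical inhibitor. Its level was 43.1, 38.2 and 38.7 CPM in CtrV and 84.8, 63.4 and 80.1 CPM in EKO-labelled libraries after OVA, and 37.8, 38.5 and 46.4 CPM in CtrV and 65.5, 65.4 and 65.7 CPM in EKO-labelled libraries without OVA. All EKO-labelled libraries lay above all CtrV libraries, and the 3 unpulsed EKO-labelled libraries were nearly equal. Nfkbib was higher by a log2 fold change of 0.92 ± 0.09 (SE, adjusted p = 1.78e-05) with OVA and 0.68 ± 0.09 (adjusted p = 0.000168) without.

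Nfkbie (ENSMUSG00000023947, chromosome 17 from 45555703 to 45563169, plus strand) encodes IκBε, another classical inhibitor, and was the gene for which no difference between the lines was found. It was at 95.1, 91.6 and 78.2 CPM in CtrV and 108, 78.7 and 81 CPM in EKO-labelled libraries after OVA, and at 89.5, 89.8 and 79.1 CPM in CtrV and 93, 84 and 72.4 CPM in EKO-labelled libraries without. The lines overlapped in both states, with replicate 1 of the EKO-labelled cells highest in each. The log2 fold change of 0.01 with OVA had a 95% interval of -0.16 to 0.18 (adjusted p = 0.93), and its sign turned under several settings. Without OVA the value was -0.06 with an interval of -0.23 to 0.11 (adjusted p = 0.569). Both intervals lie below the lower ends of the intervals of Nfkbia and Nfkbib, which began at 0.90 and 0.72 with OVA and at 0.76 and 0.48 without. The difference between these genes was not itself tested.

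Nfkbiz (ENSMUSG00000035356, chromosome 16 from 55811375 to 55838899, minus strand) encodes IκBζ, an inducible nuclear protein that binds p50 and is needed for the transcription of secondary response genes such as Il6. It showed the largest difference of the 10 genes. In OVA-pulsed cells it was at 142, 103 and 100 CPM in CtrV and 537, 552 and 537 CPM in EKO-labelled libraries. Without OVA it was at 108, 113 and 111 CPM in CtrV and 434, 556 and 528 CPM in EKO-labelled libraries. The lowest EKO-labelled library was far above the highest CtrV library, and in contrast to Relb and Nfkbia replicate 1 was the lowest EKO-labelled library in both states. The log2 fold change was 2.24 ± 0.13 (SE, adjusted p = 3.97e-07) with OVA and 2.20 ± 0.13 (adjusted p = 4.93e-07) without, that is 4.72-fold and 4.59-fold, the 337th and 343rd largest absolute log2 fold changes among the 14079 tested genes.

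Tnfaip3 (ENSMUSG00000019850, chromosome 10 from 19000910 to 19015657, minus strand) encodes A20, which edits ubiquitin chains on signalling proteins upstream of the IκB kinases and ends their activity. Its level was 71.9, 55.3 and 50.4 CPM in CtrV and 163, 113 and 133 CPM in EKO-labelled libraries after OVA. Without OVA it was 59.9, 58.7 and 56.8 CPM in CtrV and 142, 140 and 116 CPM in EKO-labelled libraries. No CtrV library reached the lowest EKO-labelled library. Tnfaip3 was higher by a log2 fold change of 1.21 ± 0.10 (SE, adjusted p = 6.27e-06) with OVA and 1.17 ± 0.10 (adjusted p = 8.67e-06) without.

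The sizes of the changes were set side by side for the subunits and for the IκB and A20 genes, and the difference between these sets was not tested. The median log2 fold change was 0.63 over the 5 subunits and 1.18 over the 5 IκB and A20 genes with OVA, and 0.35 and 1.04 without. An absolute log2 fold change of at least 1 together with an adjusted p under 0.05 was reached by 4 of the 10 genes in each state, namely Rel, Nfkbia, Nfkbiz and Tnfaip3, against 9.01% of all tested genes with and 8.81% without OVA. These 4 are an activating subunit, the inhibitors Nfkbia and Tnfaip3, and Nfkbiz, which is of the IκB family by its structure but acts as a nuclear cofactor. The comparisons with and without OVA use separate libraries of each line, although same-numbered EKO-labelled libraries deviated together, and the values of each gene are set side by side in the plot of log2 fold changes.

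**Figure D3:**
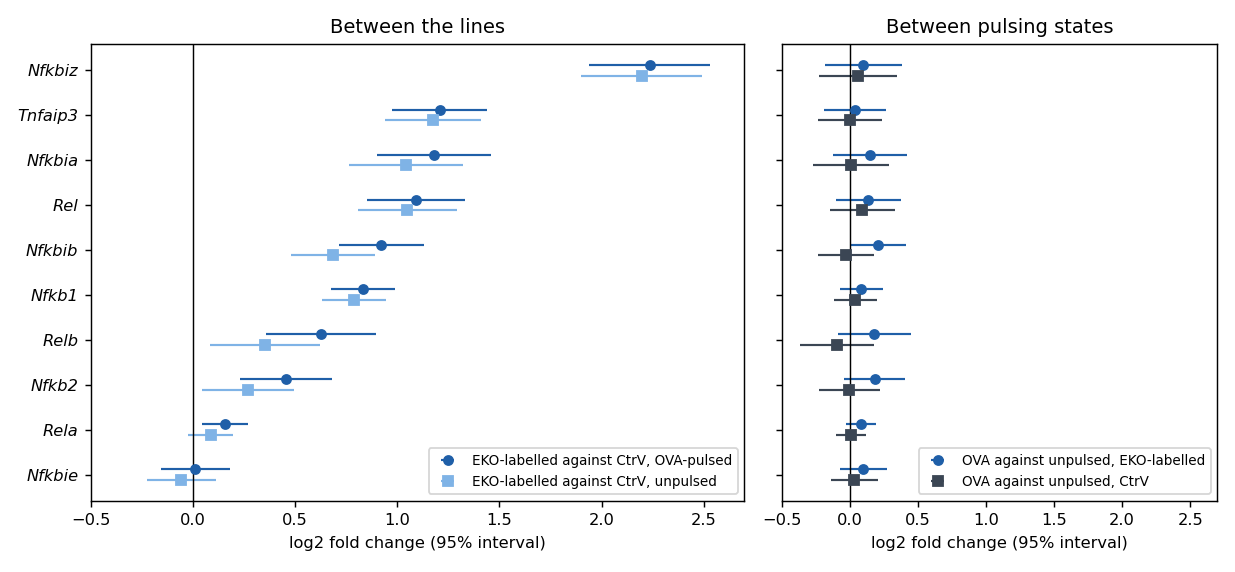
Log2 fold change of each gene with its 95% interval, between the lines in each pulsing state (left) and between pulsing states in each line (right). The largest difference between the lines is that of Nfkbiz (2.24 with and 2.20 without OVA) and the smallest that of Nfkbie (0.0093 and -0.06), while all values between pulsing states lie between -0.09 and 0.21.

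Whether OVA pulsing changed these genes, or changed the difference between the lines, was tested in the same fit. In CtrV cells none of the 10 genes passed the threshold between OVA-pulsed and unpulsed cells (0% of all tested genes were called), with log2 fold changes from -0.09 for Relb to 0.09 for Rel. In EKO-labelled cells none passed either (0% of all genes), with log2 fold changes from 0.04 for Tnfaip3 to 0.21 for Nfkbib. All 10 values were above 0 in EKO-labelled cells, where they share the same libraries and so are not independent. Nfkbib alone had an unadjusted p under 0.05 in EKO-labelled cells. The groups overlapped for all 10 genes in both lines, whereas 4.37% of all tested genes did not overlap in CtrV and 4.90% did not overlap in EKO-labelled cells. The dependence of the line difference on pulsing was largest for Relb, with a difference of 0.27 on the log2 scale and a 95% interval of -0.11 to 0.65. Nfkbib followed with 0.24 (-0.05 to 0.53) and Nfkb2 with 0.19 (-0.13 to 0.51), and the interval of every gene included 0. No gene of all 14079 passed for the dependence on pulsing with edgeR, DESeq2 or limma voom, with 269, 103 and 297 genes at an unadjusted p under 0.05 and none of the 10 among them. For the OVA pulse within a line the same tools also called no gene, with 231, 44 and 246 genes at an unadjusted p under 0.05 in CtrV and 394, 156 and 423 in EKO-labelled cells. The calls of Nfkb2 and Rela with OVA but not without do not show a difference between the states, since the difference of their log2 fold changes, 0.19 and 0.07, had intervals that included 0.

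To compare the genes with each other, levels were set per length as RPKM, the CPM of a gene divided by its exon length in kilobases. In CtrV cells Nfkbia was the highest of the 10, with 39.4, 40.5 and 37.1 RPKM in unpulsed and 47, 38.5 and 33.8 RPKM in OVA-pulsed libraries. Rela, Nfkb2 and Nfkbie followed at mean RPKM of 28.3 to 30.1 in either state. Nfkb2 overlapped both of the others, while Rela lay above Nfkbie in every unpulsed library and overlapped it after OVA. Tnfaip3 was the lowest, at a mean of 8.09 RPKM without and 8.19 RPKM with OVA, and did not overlap its neighbour Relb. In EKO-labelled cells Nfkbiz was first by its mean, at 86.4, 111 and 105 RPKM without and 107, 110 and 107 RPKM with OVA. Nfkbia was next at 98.8, 88.6 and 59.1 RPKM and 122, 79.8 and 72.1 RPKM, and the libraries of this pair overlapped, so that their order is not fixed. All other genes lay below both, from Nfkb2 at a mean of 40.9 RPKM to Tnfaip3 at 18.9 RPKM after OVA, and Relb and Tnfaip3 at the bottom overlapped. Nfkbiz thus had rank 5 of the 10 in CtrV and rank 1 in EKO-labelled cells by its mean, and Rel had rank 8 without and 7 with OVA in CtrV and rank 4 in EKO-labelled cells. The lengths come from another annotation than the one the reads were counted on. They are the union of all annotated exons of a gene, which can exceed the transcript that is expressed. Orders between genes are therefore less certain than differences between groups.

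The make-up of the subunit transcripts was compared on the RPKM scale, which divides by the union of annotated exons. That union was 12061 bases for Nfkb1 and 3072 for Rela. Where it exceeds the expressed transcript the share of a gene is too low, so the shares serve to compare the lines rather than the genes. The summed RPKM of the 5 subunit genes was 101.8 to 124.3 in CtrV and 142.2 to 190.3 in EKO-labelled libraries. Rela made up 26.8 to 27.7% of the sum in unpulsed and 24.7 to 30% in OVA-pulsed CtrV libraries, against 18 to 23% and 18 to 22.1% in EKO-labelled libraries. Rel made up 13.1 to 17.2% and 13.8 to 19.5% in CtrV, and 20.4 to 25.5% and 21.8 to 23.8% in EKO-labelled libraries. The share of Rela was thus lower and that of Rel higher in every EKO-labelled library than in every CtrV library, without a further test. A share also falls when the other genes rise. The mean RPKM of Rela itself was not lower, at 29.94 and 30.12 in CtrV and 31.75 and 33.55 in EKO-labelled cells without and with OVA. The mean share of Nfkb1 was 16.4 and 16.7% in CtrV and 20.3 and 19.7% in EKO-labelled cells without and with OVA, while that of Nfkb2 was 27 and 26.8% and then 23.3 and 24.2%. Relb kept to 11.2 to 14% in all 12 libraries, and its ranges in the lines overlapped.

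**Figure D4:**
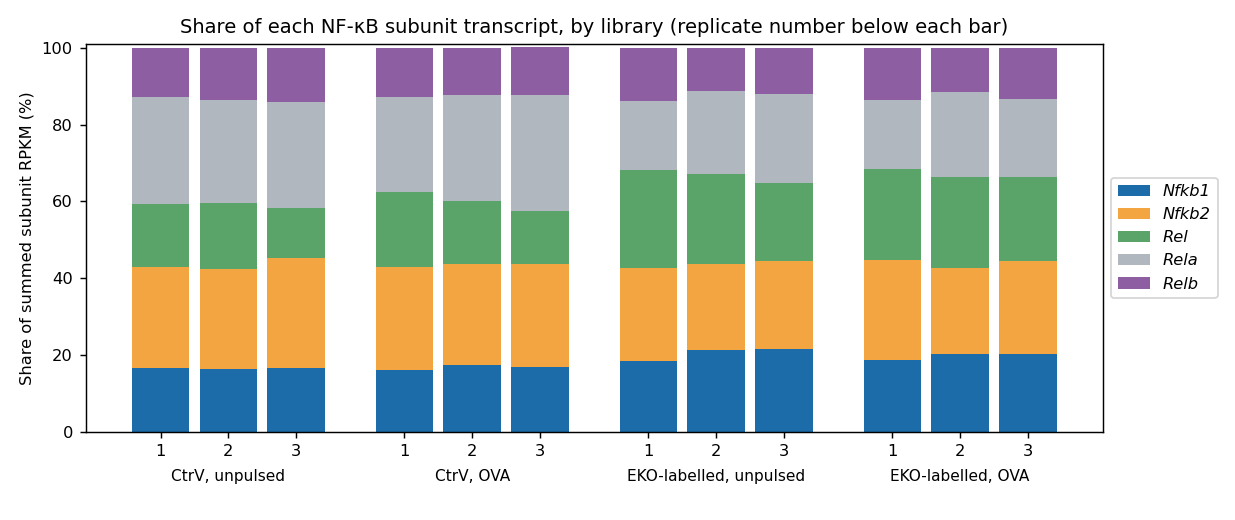
Share of each NF-κB subunit gene in the summed RPKM of the 5 subunit genes (%), 1 bar per library. The Rel share (green) is 13.1 to 19.5% in CtrV and 20.4 to 25.5% in EKO-labelled libraries, and the Rela share (grey) is 24.7 to 30% and 18 to 23%.

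Set against Rela, the transcripts of the inhibitors spread out in EKO-labelled cells. The RPKM of Nfkbiz relative to that of Rela was 0.734 ± 0.0195 (SD, n = 3) in unpulsed and 0.76 ± 0.144 in OVA-pulsed CtrV cells, and 3.17 ± 0.254 and 3.22 ± 0.162 in EKO-labelled cells. For Nfkbia the ratio was 1.3 ± 0.0603 and 1.32 ± 0.21 in CtrV, and 2.61 ± 0.75 and 2.71 ± 0.749 in EKO-labelled cells. For Tnfaip3 it was 0.271 ± 0.00777 and 0.272 ± 0.0482, and then 0.579 ± 0.0839 and 0.562 ± 0.0894. Nfkbib went from 0.629 ± 0.0719 and 0.612 ± 0.0334 in CtrV to 0.953 ± 0.0494 and 1.04 ± 0.121 in EKO-labelled cells. Only for Nfkbie did the ratio overlap between the lines in both states, at 0.842 to 1.03 in CtrV and 0.726 to 1.03 in EKO-labelled libraries.

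Replicate differences were shared among the genes. Replicate 1 held the highest CPM for all 10 genes in OVA-pulsed CtrV cells and for 9 of 10 in OVA-pulsed EKO-labelled cells. It did so for 6 of 10 in unpulsed EKO-labelled cells, but for 1 of 10 in unpulsed CtrV cells. How often replicate 1 was highest over all tested genes was not counted. A shift of whole libraries therefore cannot be told apart from a trait of these genes. Replicate 1 also had the highest total counts in the OVA-pulsed groups (36876844 in CtrV and 39698572 in EKO-labelled cells). After the group means were removed, the log2 CPM of Nfkb2 and Relb had a correlation of 0.968 over the 12 libraries, that of Nfkbia and Nfkbie 0.931 and that of Nfkb1 and Tnfaip3 0.897. Nfkbie, which did not differ detectably between the lines, therefore still followed Nfkbia from replicate to replicate. Rela and Nfkbiz did not follow the non-canonical pair in this way, with correlations of -0.00712 and 0.00518 with Relb and of 0.132 and 0.078 with Nfkb2. Of the 45 pairs of genes, 27 were above 0.5 and 4 were below 0, and all 4 involved Rela. These correlations are descriptions, since the points share libraries and normalization.

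The gene whose log2 CPM was most like that of each of the 10 over the 12 libraries is given for all but Nfkbiz. It was sought among tested genes with a mean log2 CPM of at least 1, leaving out the 10 themselves. Tnfaip2, also induced by TNF, was most like Tnfaip3 (Pearson r = 0.997), and Icam1, which encodes an adhesion molecule, was next (0.995). Tnfaip2 was at 128 to 215 CPM in CtrV and at 424 to 646 CPM in EKO-labelled libraries. Ncf1, which encodes a subunit of the phagocyte NADPH oxidase, was most like Nfkb1 (0.996), and Fscn1 was most like Relb (0.988). Tnfrsf1b, of TNF receptor 2, was most like Nfkb2 (0.980) and the next most like Relb (0.987). The nearest genes of the others were Gm45062 for Rel (0.996), Cttnbp2nl for Nfkbia (0.993), Gtpbp4 for Nfkbib (0.989), Grina for Rela (0.954) and Ssh1 for Nfkbie (0.953). Such correlations mostly follow the difference between the lines, which many genes share.

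The other genes of the pathway were taken from 7 lists compiled by hand, with earlier results of these data known. How far that choice shaped the shares below was not tested. Their counts are to be read against all tested genes, of which 47.0% passed with OVA (25.1% higher and 21.9% lower) and 46.4% without (24.5% and 21.9%). The lists share genes, so their counts are not separate observations. The non-canonical list shares Cd40, Birc3 and Traf1 with the targets, Map3k14 and Chuk with the kinases, and Otud7b with the genes around A20. Among the remaining IκB-type genes, 1 of 3 (33.3%) passed in OVA-pulsed cells. Bcl3, whose protein binds p50 and p52 in the nucleus, was higher, from 17.6, 12.8 and 10.4 CPM in CtrV to 36.6, 23 and 22.9 CPM in EKO-labelled libraries, with a log2 fold change of 1.01 ± 0.13 (SE, adjusted p = 8.18e-05). Nfkbid and Nfkbil1 did not pass, at 0.15 (adjusted p = 0.202) and 0.09 (adjusted p = 0.326). The same gene of the 3 passed without OVA.

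Of 14 genes of the IκB kinase (IKK) complex and the kinases around it, 6 were higher, 1 was lower and 7 did not pass, with a median log2 fold change of 0.11. The share that passed, 50%, was near the 47.0% of all tested genes. The core complex was among those that did not pass, with log2 fold changes of 0.04 for Chuk (IKKα), 0.17 for Ikbkb (IKKβ) and 0.03 for Ikbkg (NEMO), and adjusted p of 0.48, 0.271 and 0.583. Ikbke, of the inducible kinase IKKε, was at 4.76, 2.51 and 2.22 CPM in CtrV and 53.1, 23 and 33.5 CPM in EKO-labelled libraries, a log2 fold change of 3.51 ± 0.24 (SE, adjusted p = 9.68e-07). Tbkbp1, an adaptor of the kinase TBK1, was the gene that was lower, at 157, 149.5 and 159.5 CPM against 33.5, 38.9 and 37.5 CPM (log2 fold change -2.08 ± 0.07, adjusted p = 1.19e-08). Tank, another adaptor of TBK1 and IKKε, and Map3k8, the kinase that is held by p105, were higher, with log2 fold changes of 0.95 and 0.72. Without OVA, 5 were higher, 1 was lower and 8 did not pass, so that 42.9% passed against 46.4% of all tested genes.

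Around A20 and the linear ubiquitin chain complex, 9 of 17 genes were higher, 2 were lower and 6 did not pass, with a median of 0.15, so that 64.7% passed against 47.0% of all tested genes. Zc3h12a, which encodes the ribonuclease Regnase-1, was at 62.3, 54.3 and 51.6 CPM in CtrV and 129.9, 119 and 131 CPM in EKO-labelled libraries (log2 fold change 1.18 ± 0.08, adjusted p = 1.36e-06). Tnip1 and Tnip3, whose proteins bind A20, and Rnf31, the catalytic subunit of the linear ubiquitin ligase, were higher by 0.68, 0.83 and 0.51 on the log2 scale. Those that were lower were Itch (-0.41), a ligase that works with A20, and Cyld (-0.26), another deubiquitinase of the pathway, which are named because there were only these. Without OVA, 8 were higher, 3 were lower and 6 did not pass (64.7% against 46.4%).

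Of 15 tested genes of the non-canonical arm, 8 were higher, 3 were lower and 4 did not pass (median 0.39), and without OVA the counts were the same. The share that passed was 73.3%, against 47.0% of all tested genes with and 46.4% without OVA. Its receptors moved in both directions. Tnfrsf13c, of the BAFF receptor, was at 37.7, 48.7 and 48.9 CPM in CtrV and 5.02, 2.41 and 3.44 CPM in EKO-labelled libraries, a log2 fold change of -3.62 ± 0.22 (SE, adjusted p = 3.91e-07). Cd40, of the receptor for CD40 ligand, was at 50.1, 34.8 and 31.1 CPM against 214, 132 and 180.2 CPM (2.18 ± 0.19, adjusted p = 5.54e-06). Tnfrsf11a, of the receptor RANK, was higher by 1.15 and Tnfrsf12a, of the receptor Fn14, was lower at -1.12, although at levels of 1.13 to 3.05 CPM. Tnfrsf11a also followed replicate 1 of the EKO-labelled cells, at 62.7, 25 and 40.9 CPM after OVA.

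Of 16 tested genes of LPS recognition and its adaptors, 12 were higher, 2 were lower and 2 did not pass (median 0.61), and without OVA 11 were higher, 2 were lower and 3 did not pass. These are shares of 87.5% against 47.0% of all tested genes with OVA, and 81.2% against 46.4% without. Cd14, of the LPS co-receptor, was at 62.5, 46.1 and 47.1 CPM in CtrV and 154, 224 and 223 CPM in EKO-labelled libraries (1.92 ± 0.20, adjusted p = 2.12e-05). Ticam2, of the adaptor TRAM, Irak3, of the inhibitory kinase IRAK-M, and Peli1, of the ubiquitin ligase Pellino-1, were higher by 2.27, 2.18 and 1.51 on the log2 scale. The genes that were lower were the kinase genes Irak4 (-0.48) and Irak1 (-0.20).

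The list of nuclear cofactors and terminators of Rel proteins also holds Btrc, Fbxw11 and Cul1, of the ubiquitin ligase that acts on IκB. Of its 19 tested genes 3 were higher, with Fbxw11 and Cul1 among them, 3 were lower and 13 did not pass (median 0.02). Thus 31.6% passed, fewer than the 47.0% of all tested genes. Fbxw11, of a ubiquitin ligase subunit that recognizes phosphorylated IκBα, was the furthest from 0, at 119, 114 and 114 CPM in CtrV and 205, 221 and 214 CPM in EKO-labelled libraries (0.88 ± 0.06, adjusted p = 7.02e-07). Socs1 and Cul1 were higher by 0.45 and 0.30, and Pdlim2, whose protein ends nuclear RelA, was lower at -0.52. The coactivator genes Ep300 and Crebbp did not pass. Without OVA, 4 were higher, 2 were lower and 13 did not pass (31.6% against 46.4%).

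Of the textbook target genes of NF-κB, 39 of 46 were tested, and 33 were higher, 2 were lower and 4 did not pass in OVA-pulsed cells, with a median log2 fold change of 1.80 and 89.7% past the threshold against 47.0% of all tested genes. Without OVA, 32 were higher, 2 were lower and 5 did not pass, with a median of 1.42 (87.2% against 46.4%). Ptgs2, of the inducible cyclooxygenase, was at 3.27, 2.17 and 0.696 CPM in CtrV and 72.4, 88.9 and 58.3 CPM in EKO-labelled libraries, a log2 fold change of 5.13 ± 0.25 (SE, adjusted p = 1.07e-07). Il12b, of the shared subunit of IL-12 and IL-23, was at 30.7, 22.1 and 14.3 CPM against 660.2, 432 and 467 CPM (4.55 ± 0.25, adjusted p = 2.19e-07). Il1a, of the cytokine IL-1α, and Lcn2, of the siderophore-binding protein lipocalin-2, were higher by 3.77 and 3.74, the latter at most at 9.60 CPM. The genes that were lower were Ier3 (-0.98), an early response gene, and Myc (-0.27). Bcl2a1a, Bcl2a1b and Bcl2a1d on this list are near-identical copies, and their separate counts are uncertain.

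**Figure D5:**
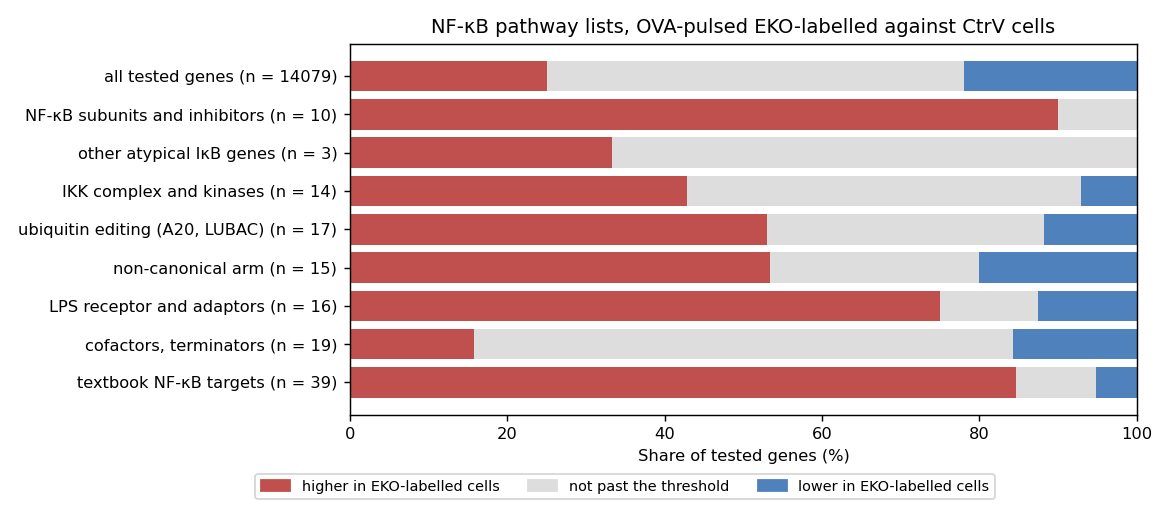
Share of tested genes (%) that were higher (red), lower (blue) or not past the threshold (grey) in OVA-pulsed EKO-labelled against CtrV cells, for all tested genes, the 10 genes described here and 7 lists of pathway genes with the number tested in brackets. Of the textbook targets 33 of 39 are higher, whereas 13 of 19 genes on the list of cofactors and terminators are not past the threshold.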

How the data were processed

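RNA of 12 libraries of Sp37A3 cells was analysed, and every column of the table was used. The authors deposited raw read counts per gene. According to the methods and the labels, TruSeq Stranded mRNA libraries were aligned to mm10 with STAR and counted with featureCounts on the exons of Ensembl 101; whether strand was used is not stated in the sources used here. Reads that fit several places equally well were given to 1 of them, which matters for near-identical genes. Groups and replicate numbers came from the labels.

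Counts were tested with edgeR 4.0.16 (R 4.3.3), with TMM normalization, a filter of log2 CPM above 0 in at least 2 libraries, a quasi-likelihood fit over all 12 libraries with group and replicate number as terms, and Benjamini-Hochberg adjustment over the 14079 genes tested. The replicate number was kept because the study's methods name it. Deviations of same-numbered libraries from their group means correlated at 0.45, 0.295 and 0.298 between the OVA-pulsed groups. Between the unpulsed groups they correlated at 0.0664, -0.00915 and 0.271. Between the pulsing states they correlated at 0.711, 0.357 and 0.424 in EKO-labelled cells and at 0.0893, 0.185 and 0.385 in CtrV cells. Libraries with different numbers were not compared in this way, so these values do not settle whether the numbers pair the libraries. Replicates differed by more than sampling noise (chi-square per degree of freedom 4.85 or more). SE is the log2 fold change divided by the root of its F. The 95% intervals use the total degrees of freedom of the fit, which are the residual ones plus those borrowed across genes. CPM are TMM-scaled, and RPKM use exon lengths of GENCODE vM21 (GRCm38). Promoter windows are from RefSeq. Steps across genes were run on simulated counts, with changes in OVA-pulsed EKO-labelled cells only and no replicate effects. Error rates under the spread of the present libraries were not tested by it.

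Named genes were the 10 members, Siglece, the gene most like each member, and per list the 4 genes with the largest absolute log2 fold change in OVA-pulsed cells among those with adjusted p under 0.05 and mean log2 CPM of at least 1. Others (Chuk, Ikbkb, Ikbkg, Nfkbid, Nfkbil1, Itch, Cyld, Irak1, Irak4, Ier3, Myc, Ep300, Crebbp, Icam1 and Ccr7) were named after their values were seen. The gene most like Nfkbiz is not reported here. The members and the lists were chosen with earlier results of these data known. Alternatives were DESeq2 1.42.0, voom of limma 3.58.1, RLE and upper-quartile normalization, no filter, at least 10 counts in every library, no replicate term, stricter limits, fewer libraries and a bias-adjusted fit.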

Additional observations from a re-analysis of the deposited data

How the results depend on the processing

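Between the lines, the direction of all genes except Nfkbie and the calls of Nfkb1, Rel, Nfkbia, Nfkbib, Nfkbiz and Tnfaip3 in both states, and of Nfkb2 and Relb with OVA, held under every other tool, normalization and filter and without each library. The log2 fold change of Nfkbiz with OVA, for example, ranged from 2.20 to 2.33 over the settings and from 2.12 to 2.46 without each library. The number of the 10 genes called was 8 to 9 with OVA and 6 to 8 without OVA when each library was left out in turn, while the share of all tested genes called was 36.8 to 49.8% with and 38.2 to 46.0% without OVA. For OVA pulsing within CtrV cells, within EKO-labelled cells, and its effect on the line difference it was 0 to 0. Requiring an absolute log2 fold change of at least 1 lowered the count to 4 with OVA and 4 without, by its own construction.

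For Nfkbie with OVA the sign turned with upper-quartile normalization (-0.028), without a filter (-0.0044), and without EKO replicate 1 in both pulsing states (-0.094), and leaving out single libraries gave -0.081 to 0.10. The cause was not tested. For Nfkb2 without OVA, the adjusted p of 0.0511 fell below the threshold with DESeq2 (0.0302), RLE normalization (0.049), limma voom (0.0468), no filter (0.0238) and the bias-adjusted fit, and without CtrV replicate 3 of the unpulsed or EKO replicate 1 or 2 of the OVA-pulsed cells. Nfkb2 without OVA ranged from 0.14 to 0.34 without single libraries.

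Without the replicate block, 9 of the 10 genes were called with OVA and 6 without OVA, while 38.4% and 37.9% of all genes were called. Relb without OVA lost its call there (0.37, adjusted p = 0.0888). The replicate term changed no other call of the 10 genes between the lines or between pulsing states. A fit of only the libraries compared could not be run for the dependence on pulsing, which needs all 4 groups.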
